A study of Mus musculus with 15 samples.

Results

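Ung, Apex1, Msh6, Pms2, Exo1, Polh and Trp53bp1 encode enzymes and a chromatin reader that process DNA after activation-induced deaminase (AID) has acted in B cells. They were chosen by name as DNA repair genes of class switching, and all 7 were found among the 51912 gene rows of the expression table and passed the filter on low counts, together with 15685 other genes. The libraries came from wild-type mouse B cells grown on 40LB feeder cells, a fibroblast layer that supports B cell growth, with IL-4 at 100 ng/ml for 6 days. Bulk unsorted cells were taken at day 6 (D6). The other cells were removed from the feeders, left unstimulated for 2 days and sorted at day 8 into 2 populations of each isotype: PC and iGC of IgE, and PC and iGC of IgG1. PC stands for plasma cells, and iGC, which the labels do not spell out, is the other sorted population of each isotype. Below, the step from iGC to PC, and words such as fell or rose, mean differences between groups of libraries. They do not mean a change followed in the same cells. Each of the 5 groups had 3 libraries that the labels call biological replicates. The labels tie no library to an animal, so p-values measure the spread between these libraries, and D6 differs from the sorted groups in time, feeder contact and sorting at once.

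AID turns cytosine into uracil in immunoglobulin genes. The glycosylase UNG can remove that uracil and the endonuclease APE1, the product of Apex1, can cut the abasic site that is left, which gives the strand breaks used in class switching. In a parallel route, a heterodimer containing MSH6 binds the U:G mismatch, a PMS2-containing nuclease nicks the strand, EXO1 resects it and DNA polymerase eta, the product of Polh, fills the gap with errors at A:T pairs. 53BP1, the product of Trp53bp1, protects switch region breaks from resection so that they can be joined.

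Total deposited counts ranged from 17.74 M to 54.07 M per library. Immunoglobulin genes took between 1.391% and 1.623% of the counts in D6 and iGC libraries and between 15.297% and 21.729% in PC libraries, which lowers every other gene's share of the raw total in PC. Levels below are therefore CPM, counts relative to library totals that were scaled by the TMM method, except where TPM, which is per length, is named. The 6 B cell markers summed to between 4219 and 4426 CPM in D6. In iGC the sums were 8308 to 8747 in IgE and 8534 to 8686 in IgG1. In PC they were 4126 to 4556 in IgG1, which overlapped with D6, and 2980 to 3171 in IgE. The 6 plasma cell markers summed to between 371 and 744 CPM in D6 and iGC, 9264 and 13616 in IgG1 PC, and 16608 and 19067 in IgE PC, so neither sum overlapped between the PC groups. The 8 feeder fibroblast markers summed to between 258 and 391 CPM in D6, 57.5 and 75.9 in IgE iGC, 39.2 and 69.5 in IgG1 iGC, 23.5 and 36.7 in IgE PC, and 74.8 and 195 in IgG1 PC, with Postn listed at 0 in all groups but IgG1 PC. The lowest Pearson r of log2 CPM across genes between replicates was also in IgG1 PC, at 0.978 to 0.9855. IgE iGC overlapped that range, at 0.984 to 0.9914, and its replicate 3 had the lowest total, 17.74 M. T cell markers summed to at most 6.47 CPM, with Cd3e listed at 0 in all groups but IgG1 PC, and macrophage markers to at most 8.89 CPM. Fewer cells of a type and less RNA per cell cannot be told apart in bulk samples.

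In 3 of the 6 members with a promoter sequence, the start lies head to head with another gene. The bases between both starts are shown because the members and their partners can then be compared over a shared stretch. Promoter sequences came from RefSeq (GRCm38.p6), which held 6 of the 7 members and not Exo1. Each line gives, 5′ to 3′ on the member's strand, the bases between both genes that hold no annotated exon, and capitals mark a CCAAT box (CCAAT on either strand) or an NRF1 motif (GCGCNTGCGC on either strand).
Apex1 and Osgep, chr14:50924894-50924948, plus strand: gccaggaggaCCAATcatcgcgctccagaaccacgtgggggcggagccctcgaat
Pms2 and Aimp2, chr5:143909848-143909963, plus strand: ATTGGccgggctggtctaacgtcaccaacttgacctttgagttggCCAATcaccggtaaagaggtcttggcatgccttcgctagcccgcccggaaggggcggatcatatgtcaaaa
Polh and Xpo5, chr17:46202646-46202781, minus strand: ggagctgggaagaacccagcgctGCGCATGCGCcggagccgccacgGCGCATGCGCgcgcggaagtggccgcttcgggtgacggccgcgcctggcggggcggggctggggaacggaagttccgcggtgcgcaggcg
In the 250 bases before the start, the CCAAT box occurred in 33.8% and the NRF1 motif in 3.74% of all 32851 promoters. The E2F forms TTTCCCGC, TTTCGCGC, TTTGCCGC and TTTGGCGC, searched on both strands, occurred in 1.86% of promoters and in 0 of the 6 member windows. A match is a description of letters and not a bound site.

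Apex1, Ung, Exo1 and Msh6 were lowest in IgE plasma cells. Apex1, Ung and Exo1 were 3.61-fold, 2.62-fold and 2.15-fold lower in IgE PC than in IgG1 PC, Msh6 was 1.3-fold lower, and Polh was 1.13-fold lower. No member was called higher, and Pms2 (1.11-fold lower, adjusted p = 0.0942) and Trp53bp1 (1.05-fold higher, adjusted p = 0.32) did not pass the test. Pms2 was called lower with total-count scaling (-0.40, adjusted p = 0.000765), with immunoglobulin genes left out of the totals (-0.35, adjusted p = 0.000874) and without IgG1 PC replicate 1 (-0.18, adjusted p = 0.0445). So 5 of the 7 members were called lower, beside 30.7% of all 15692 genes tested, and 0 were called higher, beside 27.4%. The Polh call among them was lost under several alternatives, given below. The median log2 difference was -0.38 over the members and -0.05 over all genes. In the same comparison 4 of 6 B cell markers were lower (median -0.81) and 4 of 6 plasma cell markers higher (median 0.73) in IgE PC, and their part in the members' differences was not tested. Between IgE iGC and IgG1 iGC no member passed the test: 0 members were called by edgeR, beside 1.99% of genes higher in IgE iGC and 1.88% lower, 1 member (Polh) had an unadjusted p under 0.05, and DESeq2 called that gene.

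**Figure D1:**
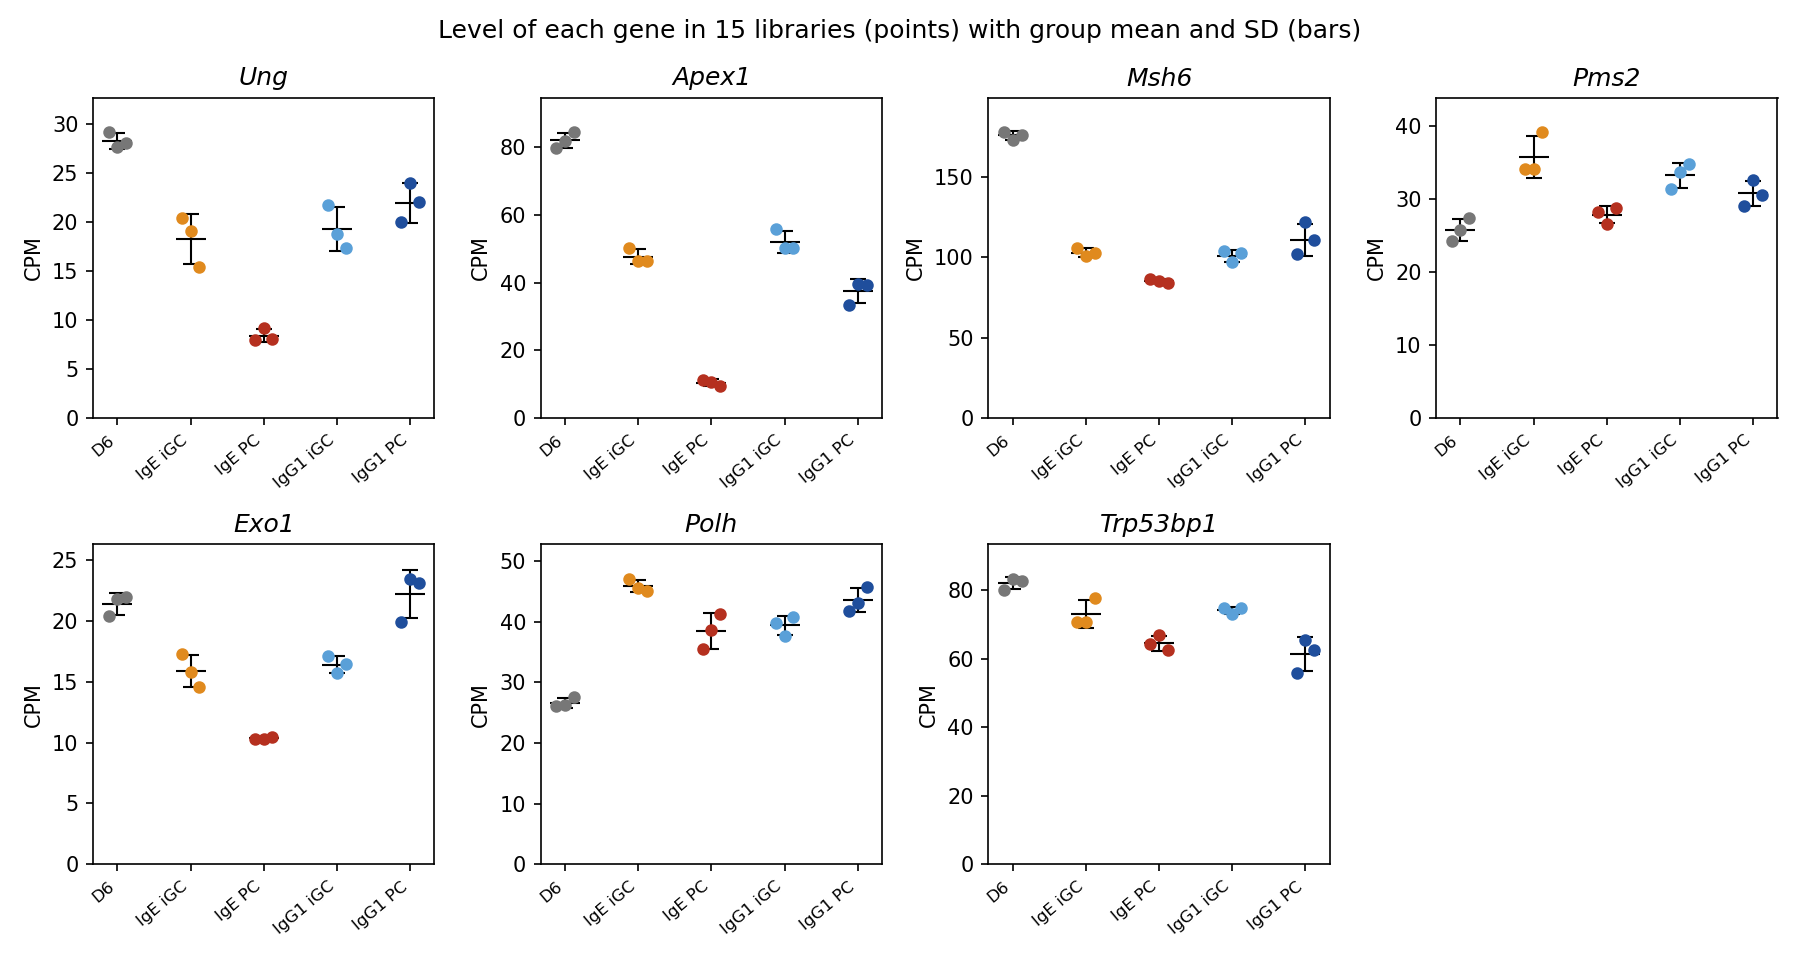
Level of each of the 7 genes in CPM (y axis, from 0, with a separate scale per gene) in the 15 libraries of the 5 groups (x axis). Points are libraries, the long bar is the group mean and the short bars are 1 SD over 3 libraries. Apex1, Ung and Exo1 are lowest in IgE PC, with 9.38 to 11.3, 7.98 to 9.19 and 10.3 to 10.5 CPM, and no library of another group reaches those values.

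Ung, the uracil-DNA glycosylase (chr5:114130386-114139323, plus strand, GRCm38, protein coding), stood at 29.2, 27.7 and 28.1 CPM in the D6 replicates 1 to 3. It stood at 20.4, 19.1 and 15.4 CPM in IgE iGC and at 21.8, 18.8 and 17.4 CPM in IgG1 iGC. In plasma cells it stood at 7.98, 9.19 and 8.09 CPM in IgE PC and at 20.0, 24.0 and 22.1 CPM in IgG1 PC. D6 was thus above every other group and IgE PC below every other group without overlap, while the 3 groups between them overlapped with their neighbours. Within IgE, Ung fell from iGC to PC by 1.13 on the log2 scale (SE 0.11, adjusted p = 2.46e-07). Within IgG1 the difference was 0.19 (SE 0.10, adjusted p = 0.126) and did not pass the test. It was -0.03 with total-count scaling and -0.35 (adjusted p = 0.0453) on the TPM scale. The difference between these steps was -1.33 (SE 0.15, adjusted p = 8.42e-06). Against IgG1 PC, IgE PC was lower by a log2 difference of -1.39 (SE 0.11, adjusted p = 5.94e-08), and leaving out any 1 IgG1 PC library gave -1.45 to -1.32.

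Other genes that act on or beside UNG did not all follow it. Smug1, a backup uracil glycosylase, stood at 9.51 ± 0.187 CPM (SD, n = 3) in IgE PC and 8.70 ± 0.706 in IgG1 PC, a log2 difference of 0.13 that did not pass the test (adjusted p = 0.212). Fam72a, whose product promotes the degradation of nuclear UNG, stood at 2.52 ± 0.243 CPM in IgE PC and 4.51 ± 0.693 in IgG1 PC. Fam72a fell from IgE iGC to IgE PC by 1.37 on the log2 scale (SE 0.15, adjusted p = 9.21e-07), next to the fall of Ung. Smug1 and Fam72a are named outside the naming rule and were chosen after their values were seen.

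Apex1, the main apurinic endonuclease (chr14:50924968-50927139, plus strand, protein coding), had the largest difference of the 7 genes. It stood at 79.9, 81.8 and 84.5 CPM in D6, at 50.3, 46.5 and 46.3 in IgE iGC, and at 55.9, 50.3 and 50.2 in IgG1 iGC. IgG1 PC held 33.3, 39.7 and 39.4 CPM and IgE PC 11.3, 10.5 and 9.38. The order was D6, then both iGC groups, which overlapped, then IgG1 PC, then IgE PC, and no other neighbours in that order overlapped. From iGC to PC the level fell 4.58-fold in IgE (log2 difference -2.20, SE 0.08, adjusted p = 3.4e-12) and 1.39-fold in IgG1 (-0.47, SE 0.08, adjusted p = 8.39e-05). The test of the difference between those falls gave -1.72 (SE 0.11, adjusted p = 5.77e-08). IgE PC lay at -1.85 against IgG1 PC (SE 0.08, adjusted p = 2.84e-10), and without any 1 IgG1 PC library at -1.92 to -1.80. On the TPM scale the IgG1 fall was larger, at -1.12 (adjusted p = 6.4e-06). IgE PC was 7.88-fold below D6.

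The paralog Apex2, a weaker abasic endonuclease, did not fall with Apex1. Apex2 stood at 9.48 ± 0.723 CPM in IgE PC and 8.38 ± 0.735 in IgE iGC, a log2 difference of 0.18 (adjusted p = 0.133). Per length, Apex1 exceeded Apex2 by a geometric mean of 14 times in D6 (13.1 to 15.5, n = 3, TPM ratio), 10.7 times in IgE iGC, 11.6 times in IgG1 iGC, 6.12 times in IgG1 PC (4.58 to 8.60) and 1.67 times in IgE PC (1.52 to 1.86). Apex1 was therefore still above Apex2 per length in every IgE PC library, but by less than in any library of another group. The mean log2 ratio differed by -2.68 between IgE PC and IgE iGC, and the groups did not overlap. An exact two-sided permutation test gave p = 0.1 for each comparison with groups that did not overlap (adjusted p = 0.114 over 8 comparisons), the smallest p that 3 libraries against 3 allow, and 0.7 between the iGC groups. Apex2 was chosen for this ratio after its values were seen.

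**Figure D2:**
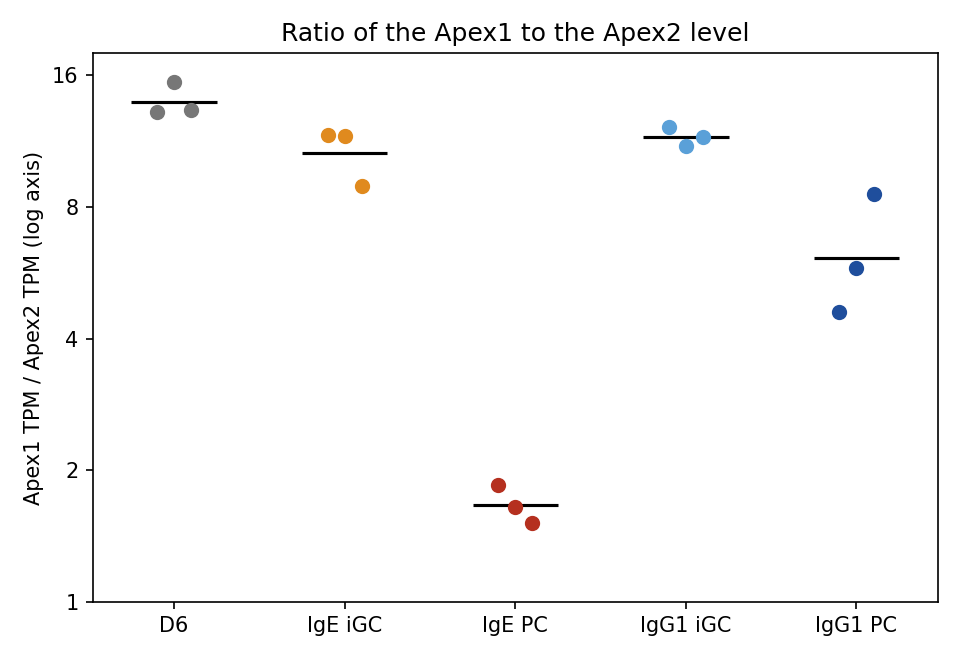
Ratio of the Apex1 TPM to the Apex2 TPM (y axis, log scale) in each library of the 5 groups (x axis). Points are libraries and bars are geometric means of 3 libraries. The ratio is 13.1 to 15.5 in D6 and 1.52 to 1.86 in IgE PC.

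Osgep, which lies head to head with Apex1 and encodes a tRNA-modifying enzyme, moved with Apex1 in some comparisons and against it in others. Osgep rose from 19.5 ± 0.878 CPM in D6 to 29.2 ± 1.54 in IgE iGC and 28.2 ± 0.343 in IgG1 iGC (log2 differences 0.58 and 0.53, adjusted p = 1.32e-06 and 3.32e-06), while Apex1 fell by 0.78 and 0.65 on the same scale (adjusted p = 2.41e-07 and 1.62e-06). From IgE iGC to IgE PC Osgep fell by 0.74, against 2.20 for Apex1. Pip4p1 overlaps Apex1 on the opposite strand. The library kit is strand-specific but the counting setting is not given in the sources used here, so reads of the overlap may be assigned to either gene. Pip4p1 was slightly higher in IgE PC, with 56.6 CPM against 50.9 in IgG1 PC.

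Msh6, the mismatch recognition subunit (chr17:87975062-87990892, plus strand, protein coding), had its largest change between day 6 and day 8. It stood at 178, 173 and 176 CPM in D6, and the 12 day 8 libraries ranged from 84.1 to 122 CPM. IgE iGC held 106, 101 and 103, IgG1 iGC 104, 96.9 and 103, IgG1 PC 102, 122 and 111, and IgE PC 86.7, 85.6 and 84.1 CPM. The first 3 of these day 8 groups overlapped and IgE PC lay below them. Msh6 was lower than D6 by log2 differences of -0.77 (SE 0.06, adjusted p = 1.71e-08) in IgE iGC and -0.80 (SE 0.06, adjusted p = 1.19e-08) in IgG1 iGC. IgE PC was 1.3-fold below IgG1 PC (log2 difference -0.38, SE 0.06, adjusted p = 5.66e-05) and 1.21-fold below IgE iGC, and the difference between the isotypes' steps was -0.41 (SE 0.08, adjusted p = 0.00114). Over all alternatives the difference from IgG1 PC ranged from -0.64 to -0.31 and kept its call, while the fall from IgE iGC was larger on the TPM scale (-0.97, in place of -0.27). Fbxo11 overlaps Msh6 on the opposite strand and went the other way, at 93.6 CPM in IgE PC and 58.3 in IgG1 PC.

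Msh3, which forms the alternative mismatch recognition dimer and was singled out after its values were seen, took the opposite course from day 6 to day 8. It stood at 19.5 ± 0.583 CPM in D6 and rose to 52.6 ± 3.63 in IgE iGC and 49.1 ± 1.70 in IgG1 iGC (log2 differences 1.43 and 1.33, adjusted p = 2.58e-11 and 5.95e-11).

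Pms2, the nicking subunit (chr5:143909964-143933968, plus strand, protein coding), was highest in the iGC groups and lowest in D6 and IgE PC. It stood at 24.3, 25.8 and 27.4 CPM in D6, at 34.1, 34.2 and 39.2 in IgE iGC, and at 31.4, 33.7 and 34.8 in IgG1 iGC. IgE PC held 28.2, 26.6 and 28.8 CPM and IgG1 PC 29.1, 32.6 and 30.6, which did not overlap by a narrow margin. It rose from D6 to iGC by 0.47 in IgE and 0.36 in IgG1 on the log2 scale (SE 0.07 each, adjusted p = 3.15e-05 and 0.000318) and fell from IgE iGC to IgE PC by 0.36 (SE 0.07, adjusted p = 0.000416). The IgG1 step (-0.11, adjusted p = 0.199) and the difference between the steps (-0.25, adjusted p = 0.0598) did not pass the test. The IgG1 step was called with total-count scaling (-0.34, adjusted p = 0.00227) and on the TPM scale (-0.67, adjusted p = 0.00017). The difference between the steps was called with total-count scaling (-0.49), with immunoglobulin genes left out of the totals (-0.44) and without IgG1 PC replicate 1 (-0.28). On the TPM scale the 2 rises from D6 were 0.25 and 0.11 and were not called. Its expected counts were fractional in all 15 libraries, so some reads were divided with other loci, and 3 annotated genes overlap it.

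Aimp2, head to head with Pms2 and encoding a scaffold of the tRNA synthetase complex, went the other way at the same time. Aimp2 fell from 53.1 ± 1.10 CPM in D6 to 13.8 ± 0.879 in IgE iGC and 15.3 ± 0.413 in IgG1 iGC (log2 differences -1.95 and -1.79, adjusted p = 6.14e-12 and 1.37e-11), across the 116 bases printed above.

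Exo1, the exonuclease of the mismatch route (chr1:175880581-175913489, plus strand, protein coding), was called in both isotypes with opposite signs. It stood at 17.3, 15.8 and 14.6 CPM in IgE iGC and at 10.3, 10.3 and 10.5 in IgE PC. It stood at 17.1, 15.7 and 16.5 CPM in IgG1 iGC and at 19.9, 23.5 and 23.1 in IgG1 PC, which overlapped with D6 at 20.4, 21.8 and 22.0. IgE PC thus lay below IgE iGC and IgG1 PC above IgG1 iGC, without overlap, while both iGC groups overlapped. The log2 change was -0.63 in IgE (SE 0.08, adjusted p = 4.57e-06) and 0.44 in IgG1 (SE 0.08, adjusted p = 0.000166), and the difference between them was -1.06 (SE 0.11, adjusted p = 3.02e-06). The IgG1 rise depended on the scaling: with total-count scaling it was 0.21 (adjusted p = 0.0551), and on the TPM scale it was -0.12 (adjusted p = 0.359). The difference between the steps ranged from -1.30 to -0.99 over all 20 alternatives and was called in each.

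Polh, the error-prone polymerase of the A:T mutation step (chr17:46171355-46202645, minus strand, protein coding), rose from D6 to both iGC groups, where Ung and Apex1 fell. It stood at 26.1, 26.3 and 27.5 CPM in D6, at 47.1, 45.5 and 45.1 in IgE iGC, and at 39.7, 37.7 and 40.8 in IgG1 iGC. IgG1 PC held 41.8, 43.0 and 45.7 CPM and IgE PC 35.4, 38.6 and 41.3. Every day 8 library was above every D6 library. The rise from D6 was 0.79 in IgE iGC and 0.56 in IgG1 iGC on the log2 scale (SE 0.06 each, adjusted p = 1.88e-08 and 8.04e-07). IgE iGC stood above IgG1 iGC by 0.22 (SE 0.06) without overlap, but did not pass the test (adjusted p = 0.0554). In plasma cells the sign turned, and IgE PC lay below IgG1 PC by a log2 difference of -0.18 (SE 0.06, adjusted p = 0.0195). That call was lost without IgE PC replicate 1 (-0.12, adjusted p = 0.125) and without IgG1 PC replicate 3 (-0.14, adjusted p = 0.0905). It was also lost with DESeq2 size factors (-0.13, adjusted p = 0.0621) and with DESeq2 itself (-0.13, adjusted p = 0.0625). No filter on low counts (-0.18, adjusted p = 0.0505) and only the groups compared (-0.19, adjusted p = 0.0919) lost it too. The difference between the steps, -0.40 (SE 0.09, adjusted p = 0.00156), was called in all 20 alternatives. The higher level of plasma cells than D6, 0.53 in IgE and 0.71 in IgG1, depended on the scaling. On the TPM scale the values were -0.34 in IgE, which was called lower (adjusted p = 0.00353), and -0.03 in IgG1. With total-count scaling the value in IgE was -0.0058.

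Xpo5, the microRNA precursor exporter that lies head to head with Polh, was lower than D6 in IgE iGC and IgG1 iGC by log2 differences of -0.33 and -0.25 (adjusted p = 0.000614 and 0.0054), where Polh was higher. From IgE iGC to IgE PC, Xpo5 rose by 0.64 (SE 0.07, adjusted p = 9.04e-07) and Polh fell by 0.26 (SE 0.06, adjusted p = 0.00161). The 3 head-to-head partners were found after the data were seen.

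Trp53bp1, which encodes the end-protection factor 53BP1 (chr2:121193281-121271407, minus strand, protein coding), was lower in plasma cells of both isotypes, and no difference between isotypes passed the test. It stood at 80.1, 83.4 and 82.6 CPM in D6, at 70.7, 70.6 and 77.7 in IgE iGC, and at 74.7, 72.9 and 74.7 in IgG1 iGC. IgE PC held 64.2, 66.9 and 62.4 CPM and IgG1 PC 55.7, 65.5 and 62.5. It was lower in PC than in iGC in both isotypes, by log2 differences of -0.18 in IgE (SE 0.06, adjusted p = 0.0184) and -0.27 in IgG1 (SE 0.06, adjusted p = 0.00115), and the difference between the steps was 0.10 (SE 0.09, adjusted p = 0.39). The IgE call was lost without IgE iGC replicate 3 (-0.13, adjusted p = 0.089) and without IgE PC replicate 3 (-0.14, adjusted p = 0.107). The small falls from D6 to iGC (-0.17 and -0.15) were lost in 4 of 6 and 6 of 6 fits that left out 1 library, and on the TPM scale the PC falls were -0.90 and -0.84. Tubgcp4, which overlaps on the opposite strand, was higher than D6 in all 4 day 8 groups.

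**Figure D3:**
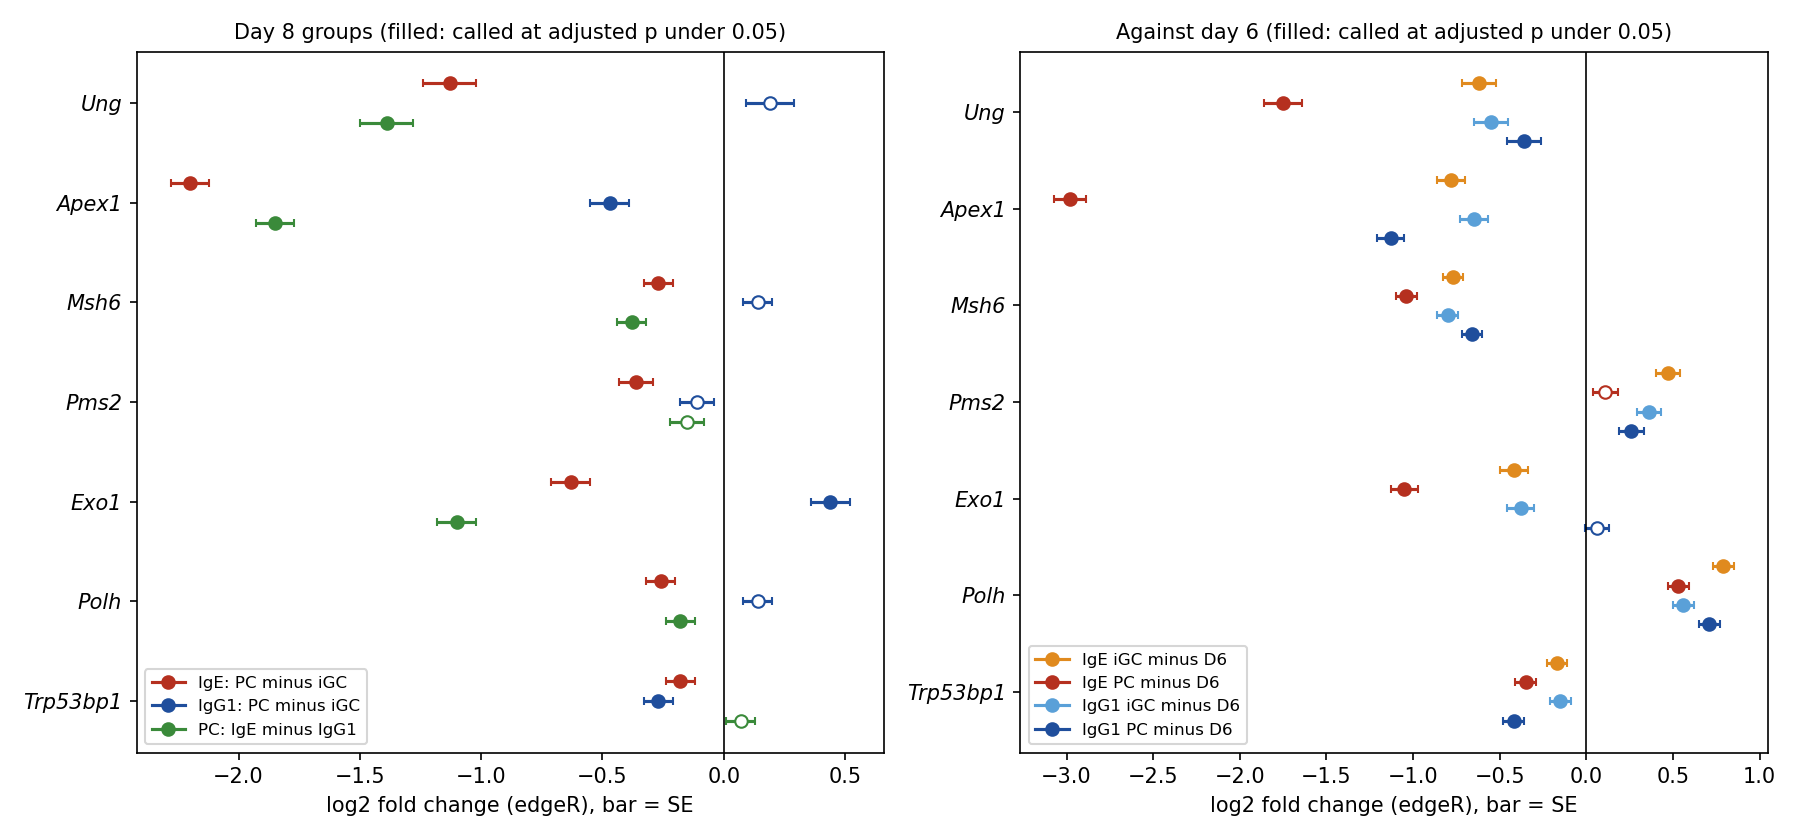
Log2 fold change of each gene (y axis) with its SE as a bar (x axis, edgeR), left for the step from iGC to PC in each isotype and for IgE PC against IgG1 PC, right for each day 8 group against D6. Filled points passed an adjusted p of 0.05 and open points did not. The IgE and IgG1 steps lie furthest apart for Apex1 (-2.20 and -0.47), Ung (-1.13 and 0.19) and Exo1 (-0.63 and 0.44).

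Read across the set, all 7 members were called lower in IgE PC than in IgE iGC, beside 33.6% of all genes, and 0 were higher, beside 30.5%. In IgG1, Apex1 and Trp53bp1 were called lower in PC than in iGC, beside 29.0% of genes, and Exo1 was called higher, beside 30.1%. The difference between the steps was called below 0 in 5 members, beside 23.1% of genes, and above 0 in 0 members, beside 19.8%. The member median was -0.36 in the IgE step and 0.14 in the IgG1 step, against -0.08 and 0.01 over all genes. In the IgG1 step, Ung, Msh6 and Polh had positive values that did not pass the test and were below 0 with total-count scaling and on the TPM scale. The TPM scale called these genes lower (adjusted p = 0.0453, 0.00144 and 0.000649). In the feeder fibroblast list, 7 of the 7 tested markers were lower in IgE PC than in IgG1 PC, beside 30.7% of genes. From IgG1 iGC to IgG1 PC, 6 of these markers were higher, beside 30.1% of genes. Their part in the results was not tested. The feeder sums of IgG1 PC replicates 1 to 3 were 195, 74.8 and 194 CPM, each above the 23.5 to 36.7 CPM of IgE PC. Leaving out any 1 IgG1 PC library kept the calls of Ung, Apex1, Msh6 and Exo1 against IgE PC. Those fits do not test the part of the feeder markers, since the remaining libraries still had the higher sums.

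Scaling to total counts moved the median of all genes from -0.05 to -0.30 for IgE PC against IgG1 PC, with 2272 genes higher and 7265 lower in place of 4303 and 4816. For the IgE step it moved from -0.08 to -0.55 (2651 higher and 8743 lower, in place of 4788 and 5270), and for the IgG1 step from 0.01 to -0.22 (3226 and 6840, in place of 4720 and 4553). For the difference between the steps the split was 1542 above 0 and 5603 below, in place of 3101 and 3632. Against D6 the medians became -0.57 in IgE PC (3311 higher and 9032 lower, in place of 5792 and 6191) and -0.27 in IgG1 PC (3964 and 7370, in place of 5636 and 5645). Totals without immunoglobulin genes gave 2707 higher and 6809 lower for IgE PC against IgG1 PC, 3901 and 6477 for the IgE step, 1884 and 5246 for the difference between the steps, and 4658 and 7339 for IgE PC against D6. The TPM scale gave 2222 and 4780, 1838 and 9583, 1286 and 3059, and 2114 and 10420 in that order, with 1645 and 9247 for the IgG1 step and 2060 and 9822 for IgG1 PC against D6. Apex1 (-2.11), Ung (-1.65), Exo1 (-1.36), Msh6 (-0.64), Polh (-0.43) and Pms2 (-0.40) lay below that shifted median of -0.30 in IgE PC against IgG1 PC. Trp53bp1 (-0.18) lay above it.

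Against D6, the 4 day 8 groups share their controls, so the values are set side by side. In IgE iGC, 5 members were lower (Apex1, Msh6, Ung, Exo1 and Trp53bp1), beside 36.3% of genes, and Polh and Pms2 were higher, beside 32.8%. In IgG1 iGC the counts were 5 lower, beside 36.0% of genes, and 2 higher, beside 32.4%. In IgE PC, 5 were lower, beside 39.5% of genes, and Polh was higher, beside 36.9%. In IgG1 PC, Apex1 (-1.13), Msh6 (-0.66), Trp53bp1 (-0.42) and Ung (-0.36) were lower, beside 36.0% of genes, and Polh (0.71) and Pms2 (0.26) were higher, beside 35.9%. On the TPM scale, Polh (-0.34, adjusted p = 0.00353) and Pms2 (-0.81, adjusted p = 1.84e-05) were called lower than D6 in IgE PC. In IgG1 PC on that scale, Pms2 (-0.56, adjusted p = 0.000624) and Exo1 (-0.52, adjusted p = 0.000657) were called lower.

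The order of the genes by level per length also differed between groups. Apex1 led in D6 at 132 TPM, ahead of Msh6 at 73.2 and Trp53bp1 at 44.8, and Ung stood at 27.3 TPM. In IgE PC, Trp53bp1 led at 20.9 TPM (20.0 to 21.7), beside Msh6 at 19.2 (18.2 to 19.9), and Apex1 was the fifth at 8.91 (7.50 to 10.3), within the range of Pms2 (8.41 to 9.64). Ung was last in IgE PC at 4.64 TPM. In IgG1 PC, Apex1 still led at 35.6 TPM, with a range of 26.3 to 40.5 that overlapped that of Msh6 (21.9 to 33.0).

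The other genes of the repair routes were taken as lists of known function. Of 12 tested genes of base excision repair, 2 were higher and 6 lower in IgE PC than in IgG1 PC, with a median log2 difference of -0.14. Of all genes tested, 27.4% were higher and 30.7% lower. Xrcc1, a scaffold of that route, was lower in IgE PC (64.0 ± 3.53 CPM) than in IgG1 PC (90.0 ± 3.62), by -0.49 (SE 0.05, adjusted p = 1.37e-06). Lig3, the ligase that binds XRCC1, was higher, at 93.6 ± 3.33 against 57.0 ± 0.933 CPM (0.71, SE 0.05, adjusted p = 6.87e-09). From D6 to IgE iGC, 6 of the 12 were higher, beside 32.8% of genes, and 4 lower, beside 36.3%. Glycosylases were found on both sides. Mbd4, which removes T or U opposite G, rose from 12.6 ± 2.27 to 88.2 ± 4.94 CPM (log2 2.81, adjusted p = 1.23e-11), and Neil3 from 4.89 ± 0.273 to 29.1 ± 5.70 CPM (2.56, adjusted p = 1.62e-08). Tdg, another glycosylase for T or U opposite G, which was singled out after its values were seen, fell by 1.06 on the log2 scale (adjusted p = 2.01e-10), as Ung also fell.

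Of 17 tested genes of mismatch repair, resection and gap filling, 14 were lower and 0 higher in IgE PC than in IgG1 PC. The median was -0.63, and 30.7% of all genes were lower and 27.4% higher. Pold1, the catalytic subunit of polymerase delta, stood at 23.9 ± 0.344 CPM in IgE PC and 61.4 ± 4.68 in IgG1 PC (log2 difference -1.36, SE 0.06, adjusted p = 1.83e-10). Pold2, an accessory subunit of the same polymerase, was 0.13 lower on that scale and did not pass the test (adjusted p = 0.252). From D6 to IgE iGC, 12 of the 17 were higher, beside 32.8% of genes, and 1 lower, beside 36.3%, where Msh6 and Exo1 were lower.

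Of 11 tested genes of translesion synthesis, 4 were higher and 2 lower in IgE PC than in IgG1 PC, with a median of 0.05. The shares over all genes were 27.4% higher and 30.7% lower. Rev1, a polymerase and scaffold that binds DNA polymerase eta, fell from 60.8 ± 3.46 CPM in IgE iGC to 24.0 ± 1.57 in IgE PC (log2 change -1.34, SE 0.08, adjusted p = 4.83e-10), beside -0.26 for Polh. Usp1, the deubiquitinase of PCNA, was higher in IgE PC than in IgG1 PC by 0.61 (SE 0.10, adjusted p = 0.000117).

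Of 22 tested genes of break recognition and end joining, 4 were higher and 5 lower in IgE PC than in IgG1 PC. The median was -0.06, and 27.4% of all genes were higher and 30.7% lower. Nbn, a subunit of the MRE11 break-sensing complex, fell from 24.8 ± 1.61 CPM in IgE iGC to 6.19 ± 0.842 in IgE PC (-2.01, SE 0.10, adjusted p = 6.6e-11) and from 26.1 ± 1.87 to 14 ± 1.46 CPM in IgG1 (-0.89, SE 0.09, adjusted p = 8.14e-07). Rbbp8, which encodes the resection factor CtIP, was higher in IgE PC (50.2 ± 4.77 CPM) than in IgG1 PC (32.4 ± 5.63), by 0.63 (SE 0.11, adjusted p = 0.000148). Paxx, an end-joining factor, rose from IgE iGC to IgE PC by 0.91 (SE 0.11, adjusted p = 2.85e-06), where Trp53bp1 was lower. In the list of 12 genes of AID targeting and uracil protection, 1 was higher and 5 were lower in IgE PC than in IgG1 PC, beside the same shares. Supt5, a transcription elongation factor that recruits AID, was the one called higher (0.25, SE 0.05, adjusted p = 0.000475). Per length it stood at 98.2 ± 1.94 TPM in IgE PC and 91.1 ± 8.58 in IgG1 PC. Total-count scaling moved the median of all genes in this comparison from -0.05 to -0.30, so a difference of this size depends on the scaling.

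A list of 19 replication genes (such as Mcm3, Cdc6 and Pola1) was set beside the members. Their mean log2 CPM was 5.69 ± 0.03 in D6, 6.05 ± 0.05 in IgE iGC, 5.90 ± 0.06 in IgG1 iGC, 6.20 ± 0.07 in IgG1 PC and 5.25 ± 0.03 in IgE PC. In IgE PC against IgG1 PC, 18 of the 19 were lower, beside 30.7% of genes, and 0 higher, beside 27.4%. Apex1, Ung and Exo1 were thus low in the group where replication genes were low. Mcm3, a subunit of the replicative helicase, stood at 62.1 ± 3.50 CPM in IgE PC and 179 ± 14.9 in IgG1 PC (log2 difference -1.52, SE 0.07, adjusted p = 3.61e-10). The part of replication in the members' differences was not tested. From D6 to iGC the directions parted. In IgE iGC 11 replication genes were higher, beside 32.8% of genes, and 2 lower, beside 36.3%. In IgG1 iGC 9 were higher, beside 32.4%, and 4 lower, beside 36.0%. Ung, Apex1, Msh6 and Exo1 were lower in both iGC groups. All 8 mitosis genes were higher than D6 in each day 8 group, beside 32.4% to 36.9% of genes. In IgE PC, 5 of them were lower than in IgG1 PC, beside 30.7% of genes.

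Taken as the gene's log2 CPM minus the replication mean, Apex1 stood at 0.67 ± 0.05 in D6, -0.47 ± 0.03 in IgE iGC, -0.19 ± 0.03 in IgG1 iGC, -0.98 ± 0.10 in IgG1 PC and -1.87 ± 0.16 in IgE PC (SD, n = 3). Apex1 was thus lowest in IgE PC on this scale as well, without overlap with IgG1 PC. Exo1 stood at -1.73 ± 0.08 in IgG1 PC and -1.87 ± 0.02 in IgE PC on this scale, and at -2.05 ± 0.09 in IgE iGC, which was the lowest group. Ung stood at -1.74 ± 0.07 in IgG1 PC and -2.17 ± 0.10 in IgE PC. In IgE iGC it stood at -1.86 ± 0.20, and its range there (-2.08 to -1.74) overlapped that of IgE PC (-2.24 to -2.05). Msh6, Pms2, Polh and Trp53bp1 were higher in IgE PC than in IgG1 PC on this scale, for example Msh6 at 1.17 ± 0.05 against 0.59 ± 0.06.

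**Figure D4:**
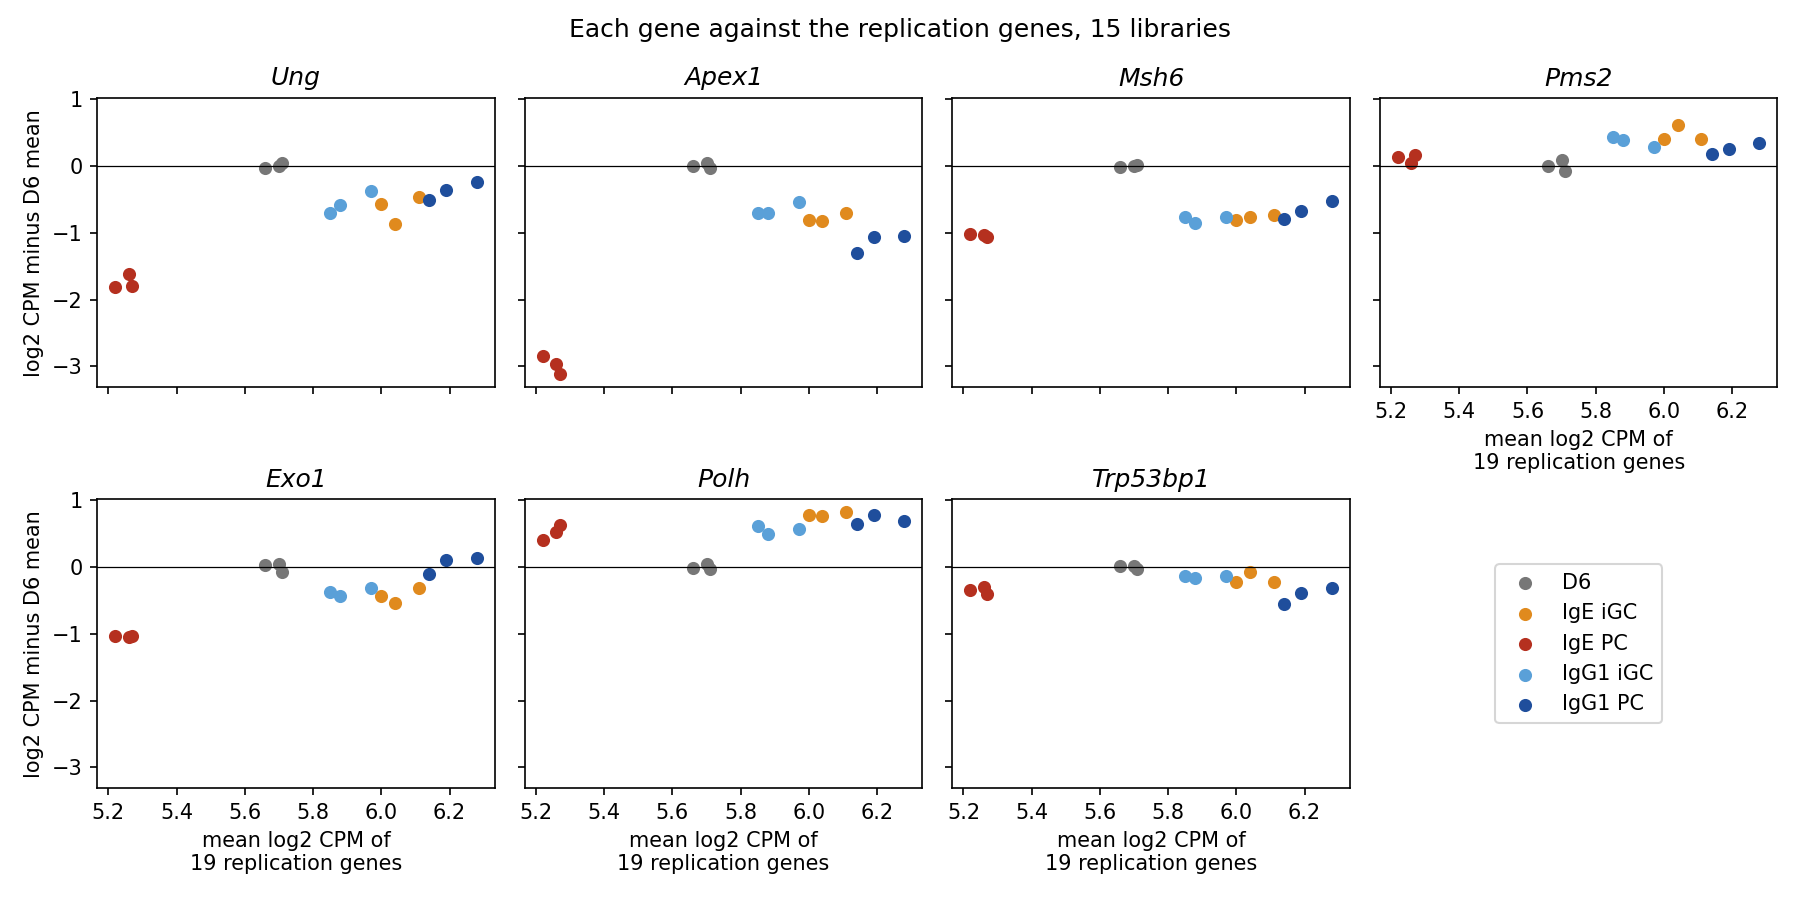
Each gene's log2 CPM minus its D6 mean (y axis) against the mean log2 CPM of 19 replication genes (x axis) in 15 libraries, coloured by group. The D6 libraries, with a replication mean of 5.69, lie above the IgE iGC and IgG1 iGC libraries for Ung, Apex1, Msh6 and Exo1, although the iGC means are higher at 6.05 and 5.90.

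Across the 15 libraries, which share the 5 groups, Ung correlated with Exo1 (Pearson r = 0.945) and Apex1 (0.943), and Pms2 with Polh (0.762), while Msh6 and Polh ran opposite (-0.764). The genes most like each member over the 15 libraries, among 9461 genes of at least 5 CPM, were Marcksl1 (r = 0.997), Mthfd1 (0.996) and Tfdp1 (0.996) for Apex1. They were Litaf (0.979), Syce2 (0.976) and Gcat (0.975) for Ung, Gstt2 (0.969), Chst7 (0.968) and Cinp (0.965) for Exo1, and Umps (0.982), Stip1 (0.981) and Tspan3 (0.979) for Msh6. For Polh they were Kif4 (0.980), Racgap1 (0.976) and Haspin (0.975), for Pms2 Naip5 (0.958), Fam118b (0.951) and Mms19 (0.950), and for Trp53bp1 Riox2 (0.980), Ahctf1 (0.974) and Usp24 (0.970).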

How the data were processed

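Polyadenylated RNA of 15 libraries was sequenced as 76 bp single-end, strand-specific reads, per the labels' protocols. Per the submitters' processing notes, cutadapt 1.9.1, STAR 2.5.2a, RSEM 1.3.0 and DESeq2 1.12.3 were used with GRCm38. The annotation release and the strand setting are not given in the sources used here. The authors deposited RSEM expected counts per gene, of which at least 90.95% per library were whole, and TPM values.

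Counts were rounded and tested with the edgeR 4.0.16 quasi-likelihood test (R 4.3.3): TMM scaling, a filter on low counts (minimum count 10, total 15), 1 mean per group, all 15 libraries, 10 residual degrees of freedom, and Benjamini-Hochberg adjustment over 15692 genes with a threshold of 0.05. The typical replicate coefficient of variation was 10.4%. SE is the log2 fold change over the root of F, so approximate. Log2 CPM used a prior count of 2, and fold changes used edgeR's default. Alternatives were DESeq2 1.42.0 and its size factors, total-count scaling, totals without immunoglobulin genes, no filter, only the groups compared, a replicate block, limma 3.58.1 on log2(TPM + 1), and each library left out. Exact permutation tests used scipy 1.17.1. The fits were tested on simulated data. Symbols and positions came from the GENCODE annotation of GRCm38, and 51633 of 51912 gene rows had a symbol.

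Named genes were all 7 members and, from each list and comparison within day 8, the largest called rise and fall without overlap between replicates. Genes like a member were the 3 with the highest r. Some list genes that met the rule are counted but not reported here by name. The members and lists were chosen with earlier results of these data known.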

Additional observations from a re-analysis of the deposited data

Results flagged for a closer look

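For 5 of the 7 genes the step from iGC to PC was not the same in IgE as in IgG1, by edgeR's test of the difference itself over all 15692 genes, in which 23.1% of genes were called below 0 and 19.8% above 0. The IgE change minus the IgG1 change was -1.72 for Apex1, -1.33 for Ung, -1.06 for Exo1, -0.41 for Msh6 and -0.40 for Polh on the log2 scale. Other lists moved with the same comparison: 7 of 7 tested feeder fibroblast markers, 18 of 19 replication genes, 6 of 8 mitosis genes, 4 of 6 B cell markers and 3 of 4 tested macrophage markers were also called below 0 in it, and of 6 plasma cell markers 1 was called below and 1 above 0. Their part in these differences was not tested. Leaving out any 1 IgG1 PC library gave -1.80 to -1.68 for Apex1 and -1.39 to -1.26 for Ung.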

How the results depend on the processing

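Of 924 values of the 7 genes under alternatives, 852 kept direction and call, 25 lost a call, 19 gained one and 28 changed sign. Sign changes were as follows. Total-count scaling gave -0.18 for Trp53bp1 in IgE PC against IgG1 PC and -0.14 in the difference between the steps. It gave -0.03, -0.09 and -0.09 for Ung, Msh6 and Polh in the IgG1 step, -0.43 and -0.0058 for Pms2 and Polh in IgE PC against D6, and -0.02 and -0.22 for Pms2 and Exo1 in IgG1 PC against D6. Totals without immunoglobulin genes gave -0.13 and -0.09 for Trp53bp1 in the first pair and -0.12 for Pms2 in IgE PC against D6. On the TPM scale Trp53bp1 gave -0.03, -0.07 and, between iGC groups, 0.04. In the IgG1 step on that scale Ung, Msh6, Exo1 and Polh gave -0.35, -0.46, -0.12 and -0.44, Pms2 and Polh gave -0.81 and -0.34 in IgE PC against D6, and Pms2, Exo1 and Polh gave -0.56, -0.52 and -0.03 in IgG1 PC against D6. With 1 library left out, the iGC difference ranged from -0.15 to 0.04 for Ung, -0.0027 to 0.05 for Msh6 and -0.11 to 0.01 for Exo1.

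Between the iGC groups, 1 member (Polh) in place of 0 was called with DESeq2, its size factors, only the groups compared and the replicate block. Genes called there numbered 922 with DESeq2 and 1503 with only the groups compared, in place of 607, and 323 to 403 with 1 library left out. Members called in the IgG1 step numbered 5 without immunoglobulin totals, 6 on the TPM scale and 3 to 5 with 1 library left out, in place of 3, with 5 reached without IgG1 PC replicate 1. Genes called in the difference between the steps numbered 4345 with limma on TPM, in place of 6733. The cause of these changes was not tested.

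The labels do not say whether same-numbered libraries share a culture or an animal, and the main fit did not pair them. Same-numbered libraries' deviations correlated at -0.106 to 0.0475 per comparison, as means. With 3 libraries a group these values cannot settle whether the libraries were paired. With the replicate block, genes called numbered 9005 in IgE PC against IgG1 PC and 580 between the iGC groups, and Polh between iGC groups (0.23, adjusted p = 0.045), Polh in the IgG1 step (0.14, adjusted p = 0.0413) and Pms2 in the difference between the steps (-0.25, adjusted p = 0.0367) gained a call. With 3 libraries a group, precision is limited by the replicate spread more than by counts: the lowest member count was 232 in 1 library.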

Other observations

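A few base excision and abasic site genes were called between the IgE and IgG1 iGC groups, where the main fit called no member. Polh was called there only under some alternatives, given above. Hmces, which shields abasic sites in single-stranded DNA, stood at 26.0 ± 0.142 CPM (SD, n = 3) in IgE iGC and 11.9 ± 1.64 in IgG1 iGC, a log2 difference of 1.13 (SE 0.11, edgeR adjusted p = 3.77e-05). Hmces stood at 1.66 ± 0.129 CPM in D6, below every day 8 library. Neil1, a glycosylase for oxidised bases, was higher in IgE iGC than in IgG1 iGC by 0.56 (SE 0.09, adjusted p = 0.00202), and Mbd4 by 0.51 (SE 0.10, adjusted p = 0.00836). Between those groups, 3 of 12 other base excision genes, 2 of 17 other mismatch repair genes and 1 of 12 AID targeting genes were higher in IgE iGC, with 0 lower in each list. Of all genes tested, 1.99% were higher in IgE iGC and 1.88% lower.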
